A study of Rattus norvegicus with 12 samples.

Results

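Transcripts of 10 genes of the circadian clock and its E-box repressors were followed in INS-1 832/13 cells, an insulin-secreting rat insulinoma line. The 10 genes, Arntl, Per1, Per2, Cry1, Cry2, Nr1d1, Nr1d2, Dbp, Bhlhe40 and Bhlhe41, were chosen by name from the 28727 named genes of the count table, and all 10 were among the 14669 genes with enough counts to be tested. The cells carried an adenovirus for GFP, the control, or for mCherry-tagged mouse ChREBPβ (ChREBPbeta in the labels), the short isoform of the glucose-responsive factor encoded by Mlxipl. Cells with either virus were kept for 48 h in low (2 mM) or high (11 mM) glucose, which gives 4 groups of 3 libraries, 12 in all. All cells were of 1 clonal tumour line and all received an adenovirus, so no untransduced cells were measured. There was 1 harvest time, and the study names no step to synchronise the clock. Its general virus protocol adds serum and sets the glucose on the day after the virus. The data give levels at that time and no rhythm, so a difference in clock phase and one in mean level cannot be told apart. RNA was taken from whole cultures, so a lower level in each cell and fewer cells expressing a gene cannot be told apart.

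The circadian clock is a transcriptional feedback loop. Arntl (also named Bmal1) with Clock or Npas2 activates genes through E-box sequences in DNA, among them the Per and Cry genes, whose proteins return to the nucleus and repress that activation. The nuclear receptors encoded by Nr1d1 and Nr1d2 (Rev-erbα and Rev-erbβ) repress Arntl through ROR elements, at which the Ror proteins activate. Bhlhe40 and Bhlhe41 (Dec1 and Dec2) encode repressors that occupy E-boxes themselves, and Dbp encodes an output factor that acts through D-box sequences. ChREBP binds, with its partner Mlx, to carbohydrate response elements, which are built from a pair of E-box-like sequences. Cultured β-cells and islets have a working clock, and clock genes are known to affect insulin secretion.

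Because Arntl, ChREBP and the Bhlhe repressors all recognise E-box-like DNA, the promoters of the 10 genes were read first. The RefSeq promoter table (GRCr8 assembly) held a window from 250 bases before to 50 after the transcript start for 9 of the 10, all but Cry1, and Nr1d1 had 2 windows for 2 start sites. The E-box CACGTG, which reads the same on both strands, was present in a window of 3 of the 9 genes, Bhlhe40, Bhlhe41 and Nr1d1. It was present in 6.42% of all 33469 windows, a share counted per window and not per gene. Its first base lay 220 bases before the start of Bhlhe40, 48 before that of Bhlhe41 and 191 before the second start of Nr1d1. The ROR element TAGGTCA, searched on both strands, was found 16 bases before the start of Arntl and in 2.63% of all windows. The D-box TTANGTAA was found 192 bases before the start of Per2 and in 2.24% of all windows. No window of the 9 genes held the cyclic AMP response element TGACGTCA (1.83% of all windows). The full carbohydrate response element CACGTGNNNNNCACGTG was absent from these windows too and occurred in 0.00299% of all windows, and its relaxed form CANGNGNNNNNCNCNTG, which includes the full one, was also absent (0.562% of all windows). Other spellings of the E-box and more distant sequence were not searched. Of 18 other clock genes described further on, 15 had a window, and 3 of these held an E-box: Ciart, Tef and Gsk3b. The 250 bases before the start are shown for the 3 members with an E-box, for Arntl with its ROR element, and for Ciart, another clock repressor, whose window held 3 E-boxes. The stretches are chr4:143174200-143174449 on the plus strand for Bhlhe40, chr4:180569356-180569605 on the minus strand for Bhlhe41, chr10:84229455-84229704 on the minus strand for Nr1d1, chr1:176766078-176766327 on the plus strand for Arntl and chr2:186112247-186112496 on the minus strand for Ciart. Capitals mark the E-box, or in Arntl the ROR element.
Bhlhe40: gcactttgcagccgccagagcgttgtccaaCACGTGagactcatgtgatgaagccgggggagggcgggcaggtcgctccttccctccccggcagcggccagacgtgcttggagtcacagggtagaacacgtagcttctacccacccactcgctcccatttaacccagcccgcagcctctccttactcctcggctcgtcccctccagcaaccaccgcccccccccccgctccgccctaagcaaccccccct
Bhlhe41: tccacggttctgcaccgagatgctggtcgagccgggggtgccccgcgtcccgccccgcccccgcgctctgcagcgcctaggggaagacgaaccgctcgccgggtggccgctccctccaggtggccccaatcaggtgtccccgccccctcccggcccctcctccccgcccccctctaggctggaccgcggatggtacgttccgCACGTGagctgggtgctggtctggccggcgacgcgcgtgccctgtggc
Nr1d1: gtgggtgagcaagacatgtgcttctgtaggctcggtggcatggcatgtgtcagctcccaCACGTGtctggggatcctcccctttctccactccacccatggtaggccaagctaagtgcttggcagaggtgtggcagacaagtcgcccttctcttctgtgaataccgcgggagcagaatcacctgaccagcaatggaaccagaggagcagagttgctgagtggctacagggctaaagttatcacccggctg
Arntl: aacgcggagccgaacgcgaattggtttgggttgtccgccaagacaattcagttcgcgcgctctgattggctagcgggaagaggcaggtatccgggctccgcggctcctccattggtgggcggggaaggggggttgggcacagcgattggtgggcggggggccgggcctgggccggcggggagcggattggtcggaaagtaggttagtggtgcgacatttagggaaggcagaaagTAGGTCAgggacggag
Ciart: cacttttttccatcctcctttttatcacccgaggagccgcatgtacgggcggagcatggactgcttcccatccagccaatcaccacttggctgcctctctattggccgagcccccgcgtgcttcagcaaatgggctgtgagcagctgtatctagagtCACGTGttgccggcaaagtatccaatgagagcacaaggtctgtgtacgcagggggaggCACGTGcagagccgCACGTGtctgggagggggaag

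**Figure D1:**
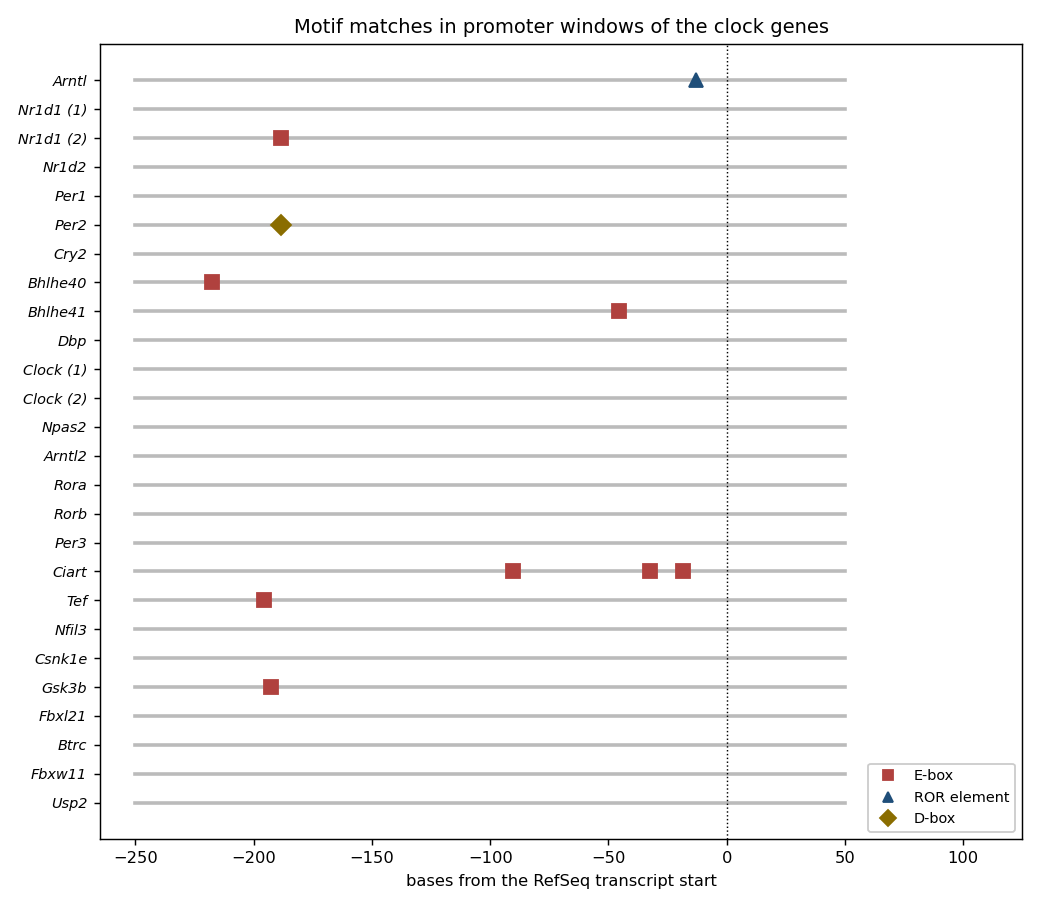
Positions of motif matches in the RefSeq promoter windows of the clock genes, in bases from the transcript start (dotted line). Each grey line is a window, and genes with 2 start sites have 2 lines. Among the 10 genes, E-boxes (squares) lie 220 bases before the start of Bhlhe40, 48 before that of Bhlhe41 and 191 before the second start of Nr1d1.

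The 12 libraries held from 25754488 to 60531215 counts, and the 10 genes had between 348 and 13748 counts in a library. Levels are given as CPM, which are counts scaled to a common library size, here with TMM factors, which correct for library composition. They were not divided by transcript length, so the levels of a gene are compared between groups. CPM are relative to the other transcripts of a library and do not give the amount of RNA in each cell. The study describes a broad increase of active transcription and death of INS-1 cells with ChREBPβ. The part of either in the differences below was not tested. A gene is called higher or lower when the edgeR quasi-likelihood test gives a Benjamini-Hochberg adjusted p under 0.05 over all tested genes and the change is at least 1.2-fold, and errors of log2 fold changes are standard errors. As a check of the virus labels, Txnip, a ChREBP target, was higher with ChREBPβ by 4.12 ± 0.05 (log2) in low and 0.93 ± 0.05 in high glucose. Pklr, another ChREBP target, was higher by 1.69 ± 0.05 and 1.08 ± 0.05. Glucose alone also raised both genes in GFP cells, Txnip by 3.74 ± 0.05 and Pklr by 0.70 ± 0.05. The virus carried mouse sequence, and the rat Mlxipl entry was lower by -0.33 ± 0.05 at 2 mM. A separate entry named ChREBPb, looked at after its values were seen, differed by 0.21 ± 0.06 at 2 mM, which is less than 1.2-fold, and by 0.37 ± 0.06 at 11 mM. Of the β-cell markers all 10 were counted, and their summed level, most of it counts of Ins1, Chga and Iapp, ran from 23810 to 26810 CPM in low and 19380 to 21200 CPM in high glucose for GFP, and from 13020 to 13420 CPM and 12300 to 12830 CPM for ChREBPβ. Of the 10, 9 were called lower with ChREBPβ at 2 mM and 7 at 11 mM, where 23.2% and 19.1% of all tested genes were. Slc2a2, the GLUT2 glucose transporter, was higher by 0.50 ± 0.04 and 0.46 ± 0.04. Markers of the other islet endocrine cells summed to between 1591 and 1721 CPM with GFP and between 431.1 and 503 CPM with ChREBPβ, nearly all of it Gcg, and 4 of the 6 averaged under 1 CPM. Of the 7 counted markers of non-endocrine cells, Ptprc and Prss1 were at 0 in all 12 libraries, and the sum was at most 0.6767 CPM with GFP and between 1.034 and 2.435 CPM with ChREBPβ, mostly counts of Cd68 and Pdgfrb. Pdgfrb, a pericyte and fibroblast receptor, was at most 0.0292 CPM in the GFP libraries and at 0.41 to 1.01 CPM in the ChREBPβ libraries. The marker sums thus moved with the virus, and their part in the results below was not tested.

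Calls among the 10 genes with ChREBPβ ran in both directions at both glucose levels, and they are given beside the share of all tested genes. At 2 mM, 4 of the 10 were called higher (Bhlhe40, Bhlhe41, Nr1d1 and Arntl) and 3 lower (Dbp, Cry2 and Per2), where 21.0% of all tested genes were called higher and 23.2% lower. At 11 mM the 4 higher genes were again Bhlhe40, Bhlhe41, Nr1d1 and Arntl, and 1 gene, Cry2, was called lower, against 14.3% and 19.1% of all tested genes. The 10 genes had a median log2 fold change of 0.13 with either glucose level, where that of all tested genes was -0.02. The median size of the change, without its sign, was 0.45 at 2 mM against 0.30 over all genes, and 0.25 against 0.22 at 11 mM. In the GFP cells glucose alone gave 1 call upward, Bhlhe40, and 1 downward, Dbp, where 10.2% and 10.0% of all genes were called. In the ChREBPβ cells none of the 10 was called between 2 and 11 mM by edgeR, where 0.988% of all genes were called higher and 2.88% lower. DESeq2 also called 0 there, and in edgeR only 1 of the 10, Dbp, had an unadjusted p under 0.05 or an adjusted p under 0.05. When libraries were scaled by their totals alone, the share of all calls that were higher went from 47.5% to 33.2% at 2 mM and from 42.9% to 29.3% at 11 mM, and the 10 genes still gave 4 higher and 3 lower, and 4 higher and 1 lower.

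**Figure D2:**
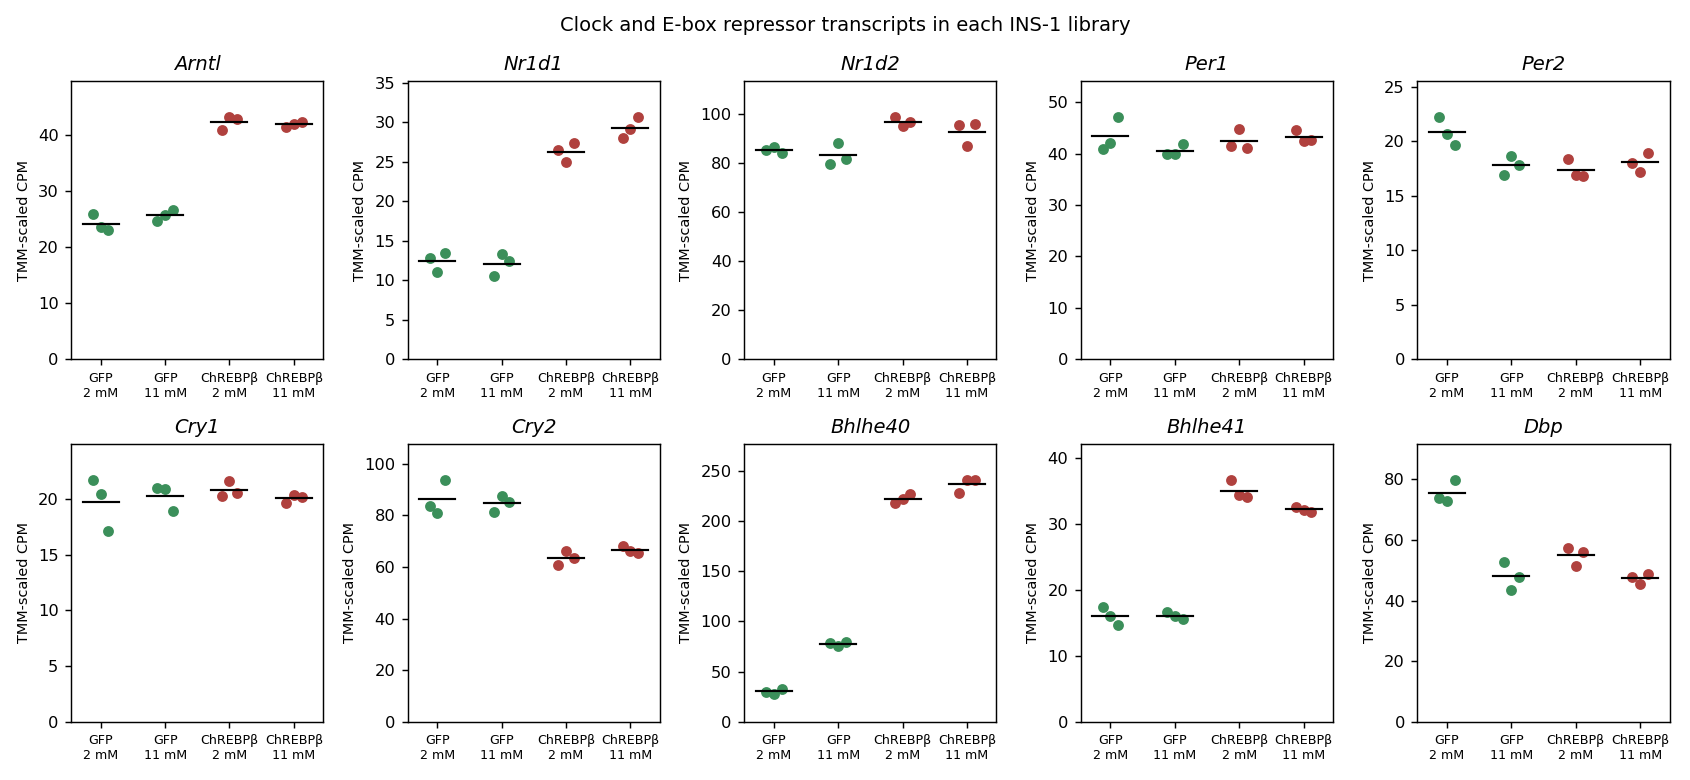
TMM-scaled levels (CPM) of the 10 genes in each library, by virus and glucose. Each point is a library (3 per group), green for GFP and red for ChREBPβ, and black lines are group means. Bhlhe40 rises from a mean of 30.3 with GFP at 2 mM to 77.7 with GFP at 11 mM and lies between 218 and 241 in the 6 ChREBPβ libraries.

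The E-box repressor Bhlhe40 had the largest change of the 10 genes in both comparisons of ChREBPβ with GFP. In GFP cells its libraries held 30.0, 28.1 and 32.9 CPM in low glucose and 78.2, 75.6 and 79.2 CPM in high glucose. In ChREBPβ cells they held 218, 222 and 227 CPM in low glucose and 228, 241 and 241 CPM in high glucose. The 4 groups did not overlap, although the last 2 lay close together. ChREBPβ raised Bhlhe40 by 2.87 ± 0.05 at 2 mM (7.33-fold, adjusted p = 2.54e-19) and by 1.61 ± 0.05 at 11 mM (3.05-fold, adjusted p = 7.13e-16). In GFP cells 11 mM glucose raised it by 1.36 ± 0.05 (2.56-fold, adjusted p = 4.87e-13). The ChREBPβ cells at 2 mM were in turn 1.52 ± 0.05 above the GFP cells at 11 mM (adjusted p = 2.56e-15). Between the ChREBPβ groups the difference was 0.09 ± 0.05 (adjusted p = 0.265), with a 95% interval reaching up to 0.19.

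Its paralog Bhlhe41 also rose with ChREBPβ, and glucose made no called difference to it. The GFP libraries held 17.4, 16.1 and 14.7 CPM in low glucose and 16.6, 16.1 and 15.5 CPM in high glucose, and the ChREBPβ libraries 36.7, 34.4 and 34.1 CPM in low and 32.6, 32.2 and 31.9 CPM in high glucose. Every ChREBPβ library was above every GFP library, while the GFP groups overlapped each other. The change was 1.12 ± 0.06 at 2 mM (2.18-fold, adjusted p = 8.83e-12) and 1.00 ± 0.06 at 11 mM (adjusted p = 3.93e-11). For glucose in GFP cells the 95% interval ran from -0.14 to 0.14, and in ChREBPβ cells, where the groups did not overlap, Bhlhe41 differed by -0.12 ± 0.06 (adjusted p = 0.254). The ratio of Bhlhe40 to Bhlhe41 counts accordingly went from 1.90 ± 0.29 (SD, n = 3) with GFP at 2 mM to 4.83 ± 0.23 with GFP at 11 mM, and was 6.35 ± 0.37 and 7.35 ± 0.31 with ChREBPβ. How reads common to the pair were assigned is not given in the sources used here.

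The genes most like these repressors over the 12 libraries were ranked by the root mean square difference of log2 levels, each centred on its own mean, over the 10467 genes that averaged 5 CPM or more. Closest to Bhlhe40 were Efna3 (0.0618), an ephrin ligand, Slc2a4 (0.0646), the GLUT4 glucose transporter, and Hspa12a (0.107), a member of the heat shock protein family. Efna3 had group means of 12.8, 33.9, 93.9 and 97.3 CPM in the order GFP at 2 mM, GFP at 11 mM, ChREBPβ at 2 mM and ChREBPβ at 11 mM, and Slc2a4 had 9.35, 25.2, 73.2 and 79.0 CPM in that order. Closest to Bhlhe41 were Vangl2 (0.0712), a planar cell polarity protein, Fam126a (0.0759), and Cebpa (0.0816), a bZIP transcription factor. Cebpa went from 11.4 and 11.2 CPM in the GFP groups at 2 and 11 mM to 23.8 and 21.9 CPM in the ChREBPβ groups.

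Arntl, the activating partner at the centre of the loop, rose with ChREBPβ at both glucose levels. Its GFP libraries held 25.9, 23.5 and 23.0 CPM in low glucose and 24.6, 25.8 and 26.6 CPM in high glucose, against 40.9, 43.1 and 42.8 CPM and 41.3, 41.9 and 42.3 CPM in the ChREBPβ libraries. No ChREBPβ library overlapped a GFP library, and the 2 glucose levels overlapped with either virus. The change was 0.81 ± 0.06 at 2 mM (1.75-fold, adjusted p = 1.78e-10) and 0.71 ± 0.05 at 11 mM (1.63-fold, adjusted p = 1.14e-09). Glucose gave a 95% interval of -0.03 to 0.21 in GFP cells and of -0.12 to 0.09 in ChREBPβ cells.

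Nr1d1, which encodes the repressor Rev-erbα, rose as well. The low-glucose GFP libraries held 12.8, 11.1 and 13.4 CPM and the high-glucose ones 10.6, 13.3 and 12.4 CPM, and the ChREBPβ libraries held 26.5, 24.9 and 27.4 CPM in low and 27.96, 29.1 and 30.6 CPM in high glucose. The viruses were separated in every library. The change was 1.08 ± 0.08 at 2 mM (2.12-fold, adjusted p = 1.29e-09) and 1.28 ± 0.08 at 11 mM (2.43-fold, adjusted p = 6.65e-11). The ChREBPβ groups did not overlap each other, with a difference of 0.16 ± 0.08 that did not pass the test (adjusted p = 0.246). Nr1d1 overlaps the 3′ end of Thra, the thyroid hormone receptor α gene on the opposite strand, and whether counting used the strand is not given in the sources used here, so its counts are uncertain. Thra was lower by -0.47 ± 0.06 at 2 mM (adjusted p = 7.6e-07) and differed by -0.12 ± 0.06 at 11 mM (adjusted p = 0.0783). Reads in the shared stretch were not counted apart, so their part in the rise of Nr1d1 was not tested. The ratio of Nr1d1 to Thra was 0.318 ± 0.018 (SD, n = 3) with GFP and 0.928 ± 0.054 with ChREBPβ in low glucose, and 0.426 ± 0.073 and 1.12 ± 0.077 in high glucose.

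Nr1d2, the paralog that encodes Rev-erbβ, differed by less than the minimum fold change. Its GFP libraries lay between 84.0 and 86.8 CPM in low glucose and between 79.7 and 88.4 CPM in high glucose. The ChREBPβ libraries held 98.7, 95 and 96.8 CPM and 95.5, 87.0 and 96.2 CPM. The groups were apart at 2 mM and overlapped at 11 mM. The differences were 0.18 ± 0.05 (adjusted p = 0.00395) and 0.16 ± 0.05 (adjusted p = 0.0103), or 1.13-fold and 1.12-fold.

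**Figure D3:**
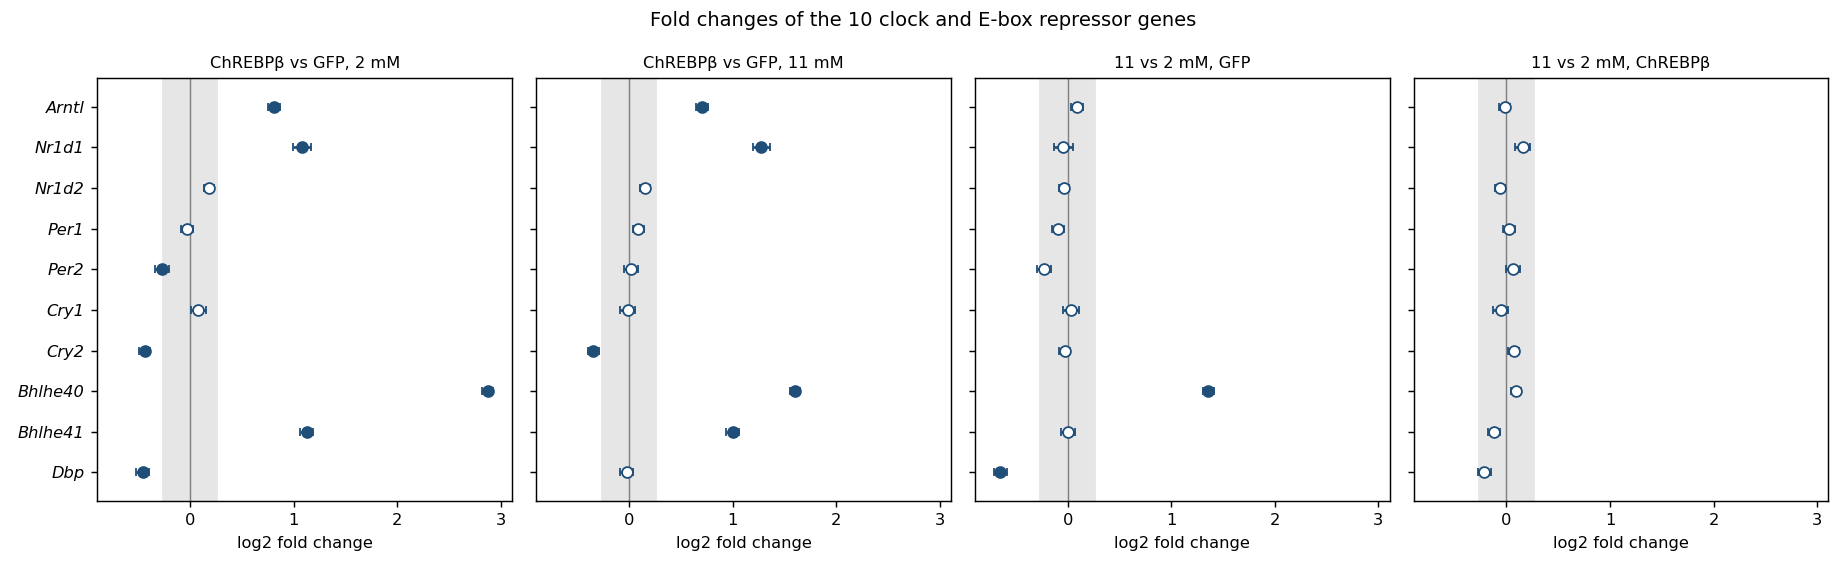
Log2 fold changes of the 10 genes in 4 comparisons (edgeR quasi-likelihood fit of all 12 libraries), with bars for standard errors and filled points for calls. The grey band marks changes under 1.2-fold. Bhlhe40 lies at 2.87, 1.61 and 1.36 in the first 3 panels, and all points of the panel for glucose in ChREBPβ cells are open.

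Of the Per and Cry genes, which encode the repressors of the central loop, only Cry2 was called at both glucose levels. Its GFP libraries held 83.7, 81.1 and 93.7 CPM in low glucose and 81.4, 87.5 and 85.1 CPM in high glucose, and its ChREBPβ libraries 60.8, 66.3 and 63.3 CPM and 68.2, 66.4 and 65.5 CPM. All 6 ChREBPβ libraries were below all 6 GFP libraries. ChREBPβ lowered Cry2 by -0.44 ± 0.05 at 2 mM (1.35-fold, adjusted p = 8.24e-07) and by -0.34 ± 0.05 at 11 mM (1.27-fold, adjusted p = 2.05e-05). Its paralog Cry1 lay between 17.1 and 21.7 CPM in all 12 libraries. The 95% interval of its ChREBPβ effect ran from -0.08 to 0.24 at 2 mM and from -0.16 to 0.14 at 11 mM, so the changes seen in Cry2 lie outside the intervals of Cry1, although the difference between the paralogs was not tested.

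Per2 was called lower at 2 mM at the very edge of the minimum fold change. In low glucose the GFP libraries held 22.2, 20.7 and 19.7 CPM and the ChREBPβ libraries 18.4, 16.9 and 16.8 CPM, so the groups did not overlap. The change was -0.27 ± 0.07 (1.21-fold, adjusted p = 0.00238), and it fell short of 1.2-fold at -0.26 with RLE factors or DESeq2, at -0.22 when replicate a of the low-glucose GFP libraries was left out and at -0.25 when replicate b or c of the low-glucose ChREBPβ libraries was. At 11 mM Per2 lay between 16.9 and 18.7 CPM in the GFP libraries and between 17.2 and 18.96 CPM in the ChREBPβ libraries, a difference of 0.02 ± 0.07 (adjusted p = 0.817). The difference with glucose in GFP cells was -0.23 ± 0.07 (adjusted p = 0.0143), under the minimum fold change, and -0.27, which passes it, when replicate c of the low-glucose GFP libraries was left out. Per1, the immediate-early member of the family, lay between 39.9 and 47.1 CPM in all libraries, with ChREBPβ effects of -0.03 ± 0.06 at 2 mM (adjusted p = 0.694) and 0.09 ± 0.06 at 11 mM (adjusted p = 0.179).

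Dbp, an output gene that the clock drives through E-boxes, fell with ChREBPβ in low glucose and with glucose in control cells. In GFP cells its libraries held 73.8, 72.7 and 79.8 CPM in low glucose and 52.6, 43.5 and 47.9 CPM in high glucose. In ChREBPβ cells they held 57.5, 51.6 and 56.0 CPM in low glucose and 47.7, 45.5 and 48.9 CPM in high glucose. The low-glucose GFP libraries were above all others. ChREBPβ lowered Dbp by -0.46 ± 0.06 at 2 mM (1.37-fold, adjusted p = 3.36e-06), and glucose lowered it by -0.65 ± 0.06 in GFP cells (1.57-fold, adjusted p = 1.82e-07). At 11 mM the viruses overlapped and differed by -0.02 ± 0.06 (adjusted p = 0.809). Glucose in ChREBPβ cells gave -0.21 ± 0.06 (adjusted p = 0.0408), under the minimum fold change although the libraries did not overlap.

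Ordered by group mean, 6 of the 10 genes had a called difference between neighbouring groups. The same count was not made over all tested genes, and the order came from the libraries that were then compared. For Bhlhe40 the order was GFP at 2 mM, GFP at 11 mM, ChREBPβ at 2 mM and ChREBPβ at 11 mM, and the first 2 steps were called. Arntl, Nr1d1, Bhlhe41 and Cry2 each had a single called step, between the pair of GFP groups and the pair of ChREBPβ groups. For Dbp the single called step lay between GFP at 2 mM, the highest group, and ChREBPβ at 2 mM. When replicate a of the high-glucose GFP libraries was left out, its step from GFP at 11 mM to ChREBPβ at 2 mM was called too, at 0.26 (adjusted p = 0.00276). Per1, Per2, Cry1 and Nr1d2 had no called step, although with library totals the step of Per2 between ChREBPβ at 11 mM and GFP at 2 mM was called, at -0.32 (adjusted p = 0.000478). Across both factors, ChREBPβ at 11 mM against GFP at 2 mM called 6 of the 10 genes, where 50.5% of all genes were called: Bhlhe40, Nr1d1, Bhlhe41 and Arntl were higher and Dbp and Cry2 lower. With ChREBPβ at 2 mM against GFP at 11 mM, 5 of the 10 were called, where 27.0% of all genes were. Bhlhe40, Bhlhe41, Nr1d1 and Arntl were higher in that comparison and Cry2 was lower. These comparisons share their libraries with those above.

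The ChREBPβ effect itself differed between the glucose levels for 2 of the 10 genes, Bhlhe40 and Dbp. For Bhlhe40 the effect at 11 mM was smaller than that at 2 mM, with a difference of -1.27 ± 0.07 (adjusted p = 2.93e-10). For Dbp the negative effect at 2 mM was not seen at 11 mM, with a difference of 0.44 ± 0.09 (adjusted p = 0.00385). Among all tested genes 1.56% had a called difference upward, like Dbp, and 4.74% downward, like Bhlhe40. Per2 had a difference of 0.29 ± 0.10 (adjusted p = 0.0707), which DESeq2 called at 0.30 (adjusted p = 0.0408) and edgeR at 0.32 when replicate b of the high-glucose GFP libraries was left out (adjusted p = 0.0472). For the other 7 genes the adjusted p was at least 0.36: the interval ran from -0.27 to 0.06 for Arntl, from -0.30 to 0.06 for Bhlhe41, from -0.05 to 0.44 for Nr1d1 and from -0.06 to 0.25 for Cry2.

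**Figure D4:**
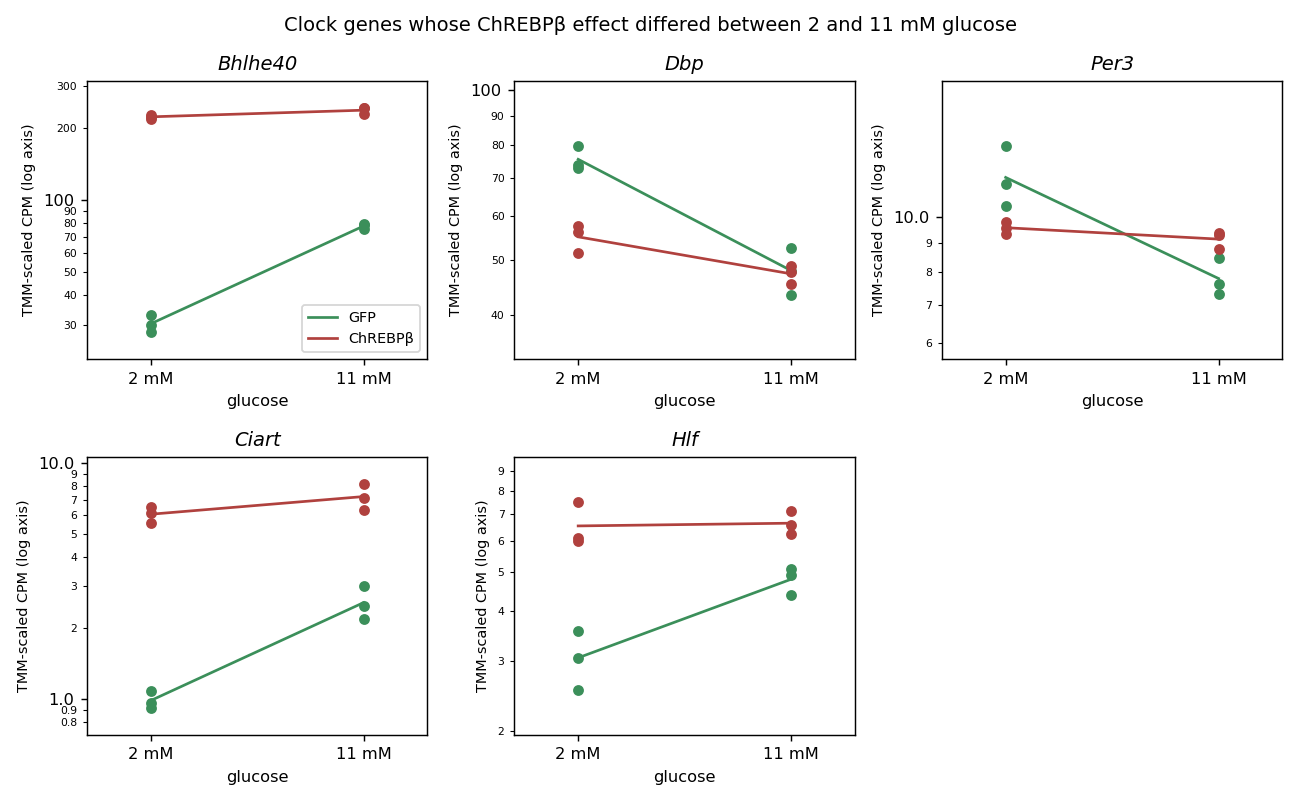
TMM-scaled levels (CPM, log axis) at 2 and 11 mM glucose with GFP (green) or ChREBPβ (red) for Bhlhe40, Dbp and the 3 other clock genes whose ChREBPβ effect differed between glucose levels. Points are libraries and lines join group means. Bhlhe40 and Hlf rise with glucose in GFP cells and lie at nearly the same level at both glucose concentrations with ChREBPβ, and Dbp falls in GFP cells.

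The wider pathway was described with 18 other clock genes, all of them tested, listed by role. At 2 mM 3 of the 18 were called higher with ChREBPβ and 4 lower, and at 11 mM 4 were higher and 3 lower, against the 21.0%, 23.2%, 14.3% and 19.1% of all genes given above. The 18 had a median of -0.01 in low and 0.06 in high glucose (log2 fold change). The largest increase was that of Ciart, a repressor of the Clock-Arntl complex also named Chrono, at 2.62 ± 0.17 at 2 mM (adjusted p = 7.92e-11) and 1.499 ± 0.13 at 11 mM (adjusted p = 1.39e-08). The GFP libraries of Ciart held 0.919, 1.08 and 0.961 CPM in low glucose and 2.19, 3.03 and 2.47 CPM in high glucose, and the ChREBPβ libraries 5.55, 6.13 and 6.52 CPM and 6.33, 7.12 and 8.17 CPM. The order of the GFP and ChREBPβ groups was thus that of Bhlhe40, at a lower count. In its promoter the E-boxes shown above began 93, 35 and 21 bases before the start. Tef and Gsk3b also held an E-box in their windows. Tef was called higher at both glucose levels, while Gsk3b was not called, at 0.11 ± 0.06 at 2 mM and 0.15 ± 0.06 at 11 mM.

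Among the Ror genes, which activate at the elements where Nr1d1 represses, Rorb was called at 11 mM only, at 0.49 ± 0.18 (adjusted p = 0.0296), and the call was lost with library totals and when replicate a or c of either high-glucose group was left out (adjusted p up to 0.121). Rora differed by 0.06 ± 0.19 and 0.28 ± 0.18 and was not called. With replicate c of the high-glucose GFP libraries left out, Rora was called there at 0.57 (adjusted p = 0.0146).

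Of the D-box factors related to Dbp, Tef and Hlf were called higher at both glucose levels. Tef rose by 0.69 ± 0.05 at 2 mM (adjusted p = 7.21e-10) and 0.78 ± 0.05 at 11 mM (adjusted p = 1.19e-10), from between 59.7 and 68.3 CPM with GFP to between 99.3 and 112 CPM with ChREBPβ. Hlf rose by 1.12 ± 0.14 (adjusted p = 7.21e-07) and 0.47 ± 0.12 (adjusted p = 0.0029), with 2.54 to 5.09 CPM in the GFP libraries and 6.02 to 7.52 CPM with ChREBPβ. Nfil3, a repressor at D-boxes, differed by -0.20 ± 0.07 and -0.26 ± 0.07, under the minimum fold change. It passed that minimum at both glucose levels with library totals, at 2 mM without ChREBPβ replicate c (-0.27), and at 11 mM without GFP replicate b (-0.30) or ChREBPβ replicate a or b (-0.28 each).

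Among partners and paralogs of Arntl, Clock differed by -0.15 ± 0.06 and -0.20 ± 0.06, under the minimum fold change, which it passed at 11 mM with library totals (-0.29, adjusted p = 0.00103). Npas2, which can replace Clock, was lower by -0.54 ± 0.20 at 2 mM (adjusted p = 0.024) and -0.63 ± 0.19 at 11 mM (adjusted p = 0.00845), at 1.48 to 3.04 CPM. The call at 2 mM was lost when replicate a or c of GFP or replicate b or c of ChREBPβ was left out there (adjusted p up to 0.148), and that at 11 mM when GFP replicate b was (adjusted p = 0.0516). Arntl2 was lower by -1.38 ± 0.39 (adjusted p = 0.00486) and -1.18 ± 0.37 (adjusted p = 0.0128) at under 1 CPM in every library, and the second call was lost when ChREBPβ replicate a was left out (adjusted p = 0.0638).

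Per3, the remaining Per gene, was lower by -0.30 ± 0.09 at 2 mM (adjusted p = 0.00921) and differed by 0.23 ± 0.09 at 11 mM (adjusted p = 0.0408), less than 1.2-fold. With replicate b of the low-glucose GFP libraries left out, the first value was -0.19 (adjusted p = 0.101), and with replicate b of the high-glucose GFP libraries left out the second was called at 0.29 (adjusted p = 0.0212). Among the genes that turn clock proteins over, Fbxl21, a ubiquitin ligase subunit for the Cry proteins, was lower by -0.62 ± 0.10 (adjusted p = 1.29e-05) and -0.53 ± 0.09 (adjusted p = 8.73e-05). The kinase genes Csnk1d, Csnk1e and Gsk3b, the ligase subunits Btrc and Fbxw11, the deubiquitinase Usp2 and the repressor Cipc were not called in either ChREBPβ comparison, with differences from -0.18 to 0.19.

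**Figure D5:**
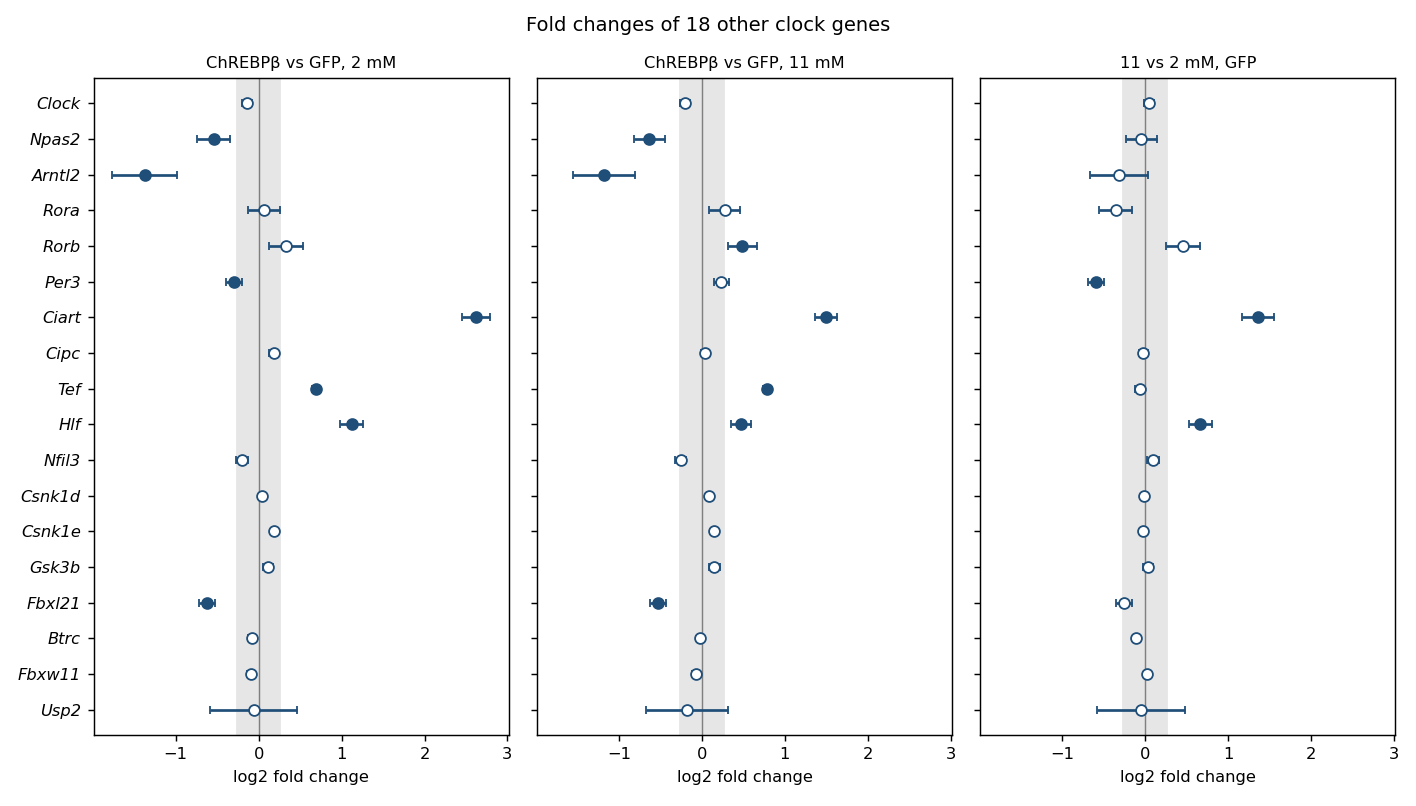
Log2 fold changes of 18 other clock genes in 3 comparisons, with bars for standard errors and filled points for calls at an adjusted p under 0.05 and at least 1.2-fold (outside the grey band). Ciart lies farthest right in each panel, at 2.62, 1.499 and 1.36, and Arntl2 farthest left in the comparisons with ChREBPβ.

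Glucose in GFP cells called 2 of the 18 higher, Ciart by 1.36 ± 0.19 (adjusted p = 1.42e-05) and Hlf by 0.66 ± 0.14 (adjusted p = 0.00105), a share near the 10.2% of all genes. Per3 alone was called lower, by -0.60 ± 0.09 (adjusted p = 6.07e-05), where 10.0% of all genes were. Fbxl21 was also called lower with library totals (-0.29) or without GFP replicate b at 2 mM (-0.31), Rora without GFP replicate c at 11 mM (-0.65), and Rorb was called higher without GFP replicate a at 2 mM (0.62). In ChREBPβ cells 1 of the 18 was called, where 0.988% of all genes were higher and 2.88% lower: Rorb at 0.62 ± 0.18 (adjusted p = 0.0414), which was lost with library totals (adjusted p = 0.0503) and without any of 5 of the 6 ChREBPβ libraries, all but replicate b at 2 mM. The ChREBPβ effect differed between glucose levels for 3 of the 18, 1 upward and 2 downward, against 1.56% and 4.74% of all genes. It was smaller at 11 mM for Ciart at -1.12 ± 0.23 (adjusted p = 0.00377) and Hlf at -0.65 ± 0.18 (adjusted p = 0.0324), and for Per3 it moved upward by 0.53 ± 0.13 (adjusted p = 0.0146). The call for Hlf was lost without any of 6 libraries, with an adjusted p of up to 0.112. Bhlhe40, Ciart and Hlf were thus each higher with glucose in GFP cells, higher with ChREBPβ at both glucose levels, and less so at 11 mM, whereas Dbp and Per3 were each lower with glucose in GFP cells and lower with ChREBPβ at 2 mM. The comparisons of glucose in GFP cells and of ChREBPβ at 2 mM share the same control libraries.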

How the data were processed

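RNA for the 12 libraries was amplified by the sequencing provider and sequenced in paired-end reads. The authors deposited raw read counts per gene with no normalization, and beside them the mean count of each group, a signal column that was only checked to equal the mean of the counts. The submitters' processing notes name the Rnor_6.0 build and edgeR. The aligner, the counting program and its use of strand are not given in the sources used here. An entry without a gene name (0.0043% to 0.00601% of a library) was left out.

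Counts were filtered by group (filterByExpr) and scaled by TMM in edgeR 4.0.16 (R 4.3.3), and all 12 libraries entered 1 quasi-likelihood fit by group. Contrasts gave the 6 pairwise comparisons and the difference of the ChREBPβ effects, and p-values were adjusted by Benjamini-Hochberg over 14669 genes. The minimum of 1.2-fold follows the study, and the adjusted p threshold of 0.05 was set here. CPM in the text are TMM-scaled, and log2 levels for likeness used a prior count of 2. The 10 genes, the list of 18 other clock genes, the marker lists and the likeness rule (3 genes for each of the 2 members with the largest change at 2 mM) were chosen with earlier results of these data known. ChREBPb and Thra were added after their values were seen. Some clock genes are not reported here. The fits were tested on simulated data.

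Alternatives were RLE factors, library totals, DESeq2 1.42.0, a block for the replicate letter, a fit of only the 2 groups compared, a minimum of 10 counts per library or no filter at all, a minimum of 2-fold or none, and leaving out each library. The study describes its plotted values as averages of independent experiments, while the labels do not say which replicates came from separate cultures, so p-values measure the spread between these libraries. No libraries of a group agreed within sampling noise (chi-square per degree of freedom 3.13 to 17.5). Because RNA was amplified without molecular identifiers, counts are not independent molecules. The study's general virus protocol gives a longer exposure than its 48 h for RNAseq. Promoters were matched by symbol or synonym to RefSeq windows of GRCr8, not the authors' build. Levels per transcript length and protein identity of paralogs were not analysed here.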

Additional observations from a re-analysis of the deposited data

Results flagged for a closer look

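The ChREBPβ effect on Bhlhe40 differed between glucose levels by a test of the difference itself (edgeR quasi-likelihood, log2 effect at 11 mM minus that at 2 mM): -1.27 ± 0.07 (standard error), adjusted p = 2.93e-10. Leaving out each library in turn gave -1.33 to -1.21. The GFP libraries lay 2.56-fold apart between 2 and 11 mM and the ChREBPβ libraries 1.07-fold apart.

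For Dbp the same difference was 0.44 ± 0.09 (adjusted p = 0.00385), and 0.37 to 0.51 without each library in turn. Its ChREBPβ effect was -0.46 at 2 mM and -0.02 at 11 mM. Groups of 3 libraries were too small to look for single outlying values.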

How the results depend on the processing

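The calls of Bhlhe40, Bhlhe41, Nr1d1, Arntl, Cry2 and Dbp in the ChREBPβ and glucose comparisons, and the differences between glucose levels for Bhlhe40 and Dbp, kept their direction and side of the threshold under every alternative except a minimum of 2-fold, for genes that changed by less. With at least 2-fold, the called members were 3 at 2 mM, 3 at 11 mM, 1 for glucose in GFP, 3 in each comparison across both factors and 1 for the difference of effects, and the other clock genes 3, 2, 1, 0 (glucose in ChREBPβ cells), 3, 2 and 1. With no minimum fold change, glucose in ChREBPβ cells called 1 member and 2 other clock genes, and ChREBPβ called 11 of these at 2 mM and 11 at 11 mM. Shares of all tested genes at 2-fold or with no minimum were not computed, so these counts have no such comparison. Leaving out each library gave 6 to 7 members at 2 mM, 5 at 11 mM, 2 to 3 for glucose in GFP, 0 for glucose in ChREBPβ, 6 for ChREBPβ at 11 mM against GFP at 2 mM, 5 to 6 for the reverse glucose levels, and 2 to 3 for the difference of effects. For the other clock genes it gave 0 to 1 for glucose in ChREBPβ and, for ChREBPβ at 2 mM against GFP at 11 mM, 4 to 8, with 4 when replicate b of ChREBPβ at 2 mM was left out and 5 when replicate a of GFP at 11 mM was.

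The replicate letters showed no pairing by this measure: none of 18 same-letter pairs of libraries correlated above 0.1 in their deviations from group means (r from -0.114 to 0.0644), and 4 of 12 libraries correlated best with their own letter. With groups this small, the measure cannot tell whether libraries of the same letter came from the same experiment. The replicate block changed none of 70 member results, and the call of Rorb for glucose in ChREBPβ cells was lost (adjusted p = 0.0504, so 0 other clock genes called), as was that of Npas2 for ChREBPβ at 2 mM against GFP at 11 mM (adjusted p = 0.0588). Library totals gave 0 for glucose in ChREBPβ cells too. Library totals also shifted the median of all genes by -0.0991 at 2 mM, -0.084 at 11 mM and -0.116 between ChREBPβ at 11 mM and GFP at 2 mM, and the share of calls that were higher from 47.5% to 33.2% at 2 mM and from 42.9% to 29.3% at 11 mM, while the members stayed at 4 higher and 3 lower and at 4 higher and 1 lower. For ChREBPβ at 11 mM against GFP at 2 mM that share went from 46.9% to 33.4% and the members from 4 higher and 2 lower to 4 higher and 3 lower, with Per2 called.

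Values near 0 that did not pass the test changed sign. For Cry1 library totals gave -0.0205 at 2 mM, -0.0929 for ChREBPβ at 11 mM against GFP at 2 mM and -0.024 for the reverse glucose levels, and at 11 mM RLE factors gave 0.00724 and DESeq2 0.00714. Leaving out each library, Cry1 ran from -0.0131 to 0.149 at 2 mM, -0.0607 to 0.0148 at 11 mM, -0.057 to 0.106 for glucose in GFP, -0.0691 to 0.0935 and -0.00512 to 0.0705 across both factors, and -0.162 to 0.000949 for the difference of effects. Per2 at 11 mM became -0.063 with library totals and ran from -0.0156 to 0.0548. Bhlhe41 for glucose in GFP became -0.00153 with RLE factors, -0.0296 with library totals, -0.00125 with DESeq2 and -0.0026 with only its 2 groups, and ran from -0.0561 to 0.0611. Per1 for ChREBPβ at 11 mM against GFP at 2 mM became 0.0113 with RLE factors, 0.0113 with DESeq2, 0.00471 with at least 10 counts and 0.000387 with only its 2 groups, and ran from -0.0429 to 0.0603. Per1 also ran from -0.0691 to 0.0362 at 2 mM and -0.000803 to 0.0669 for glucose in ChREBPβ, Dbp from -0.0849 to 0.04996 at 11 mM, Nr1d1 from -0.122 to 0.0486 and Cry2 from -0.0679 to 0.0393 for glucose in GFP, and Nr1d2 from -0.0529 to 0.0225 for the difference of effects. The cause was not tested.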
